A study of Mus musculus with 4 samples.

Results

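The hepatic uptake transporters described here are 7 genes, Slco1a1, Slco1a4, Slco1b2, Slco2a1, Slco2b1, Slc10a1 and Slc22a7, of 17406 genes and unnamed transcripts tested in mouse liver. They were taken by name, as solute carriers of bile salts and organic anions, and every non-control probe of the array whose transcript accession belongs to one of them was used, which gave 9 probes. Total RNA from liver was hybridised to 1-colour Agilent mouse expression arrays, 1 liver per array. There were 2 wild type livers, called wild type 1 and 2, and 2 livers of mice that lack the Cyp3a gene cluster (Cyp3a-/-), called Cyp3a-/- 1 and 2. No other allele or treatment is named. The sources used here do not state the strain, the sex, the age or the feeding of the animals. The labels speak of separate experiments on different animals, but not of which arrays belong to which experiment. The p-values therefore set the genotype difference against the spread between livers of the same genotype, which limma moderates with that of all features. The knockout was checked first, with Cyp3a11, the main Cyp3a gene of adult mouse liver. Cyp3a11 stood at 7.94 and 8.09 in wild type and at -6.98 and -6.93 in Cyp3a-/- liver. It was below background on both Cyp3a-/- arrays (at least 7204-fold lower). Its limma adjusted p of 1.4e-05 is from the fit that used these background values. Levels here and below are log2 signals relative to the 75th percentile of each array.

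Uptake transporters sit mainly on the blood-facing membrane of hepatocytes and bring bile salts, hormone conjugates, bilirubin and drugs into the cell, where metabolising enzymes such as those of the Cyp3a family act on them. The Slco genes encode organic anion transporting polypeptides, which work without sodium. Slc10a1 encodes Ntcp, which uses the sodium gradient to take up conjugated bile salts, and Slc22a7 encodes an organic anion transporter of another family. In mouse liver Slco1a4 is a known target of the drug-sensing receptors PXR and CAR, and Slco1a1 and Slco1a4 are known to differ between the sexes.

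Slco1a4 was the gene with a large genotype difference, and it lies on chromosome 6 between the other liver Slco1 genes, Slco1b2 and Slco1a1. The 250 bases before the start of these 3 genes are shown because the genes are near neighbours on the chromosome while their RNA levels differed in what they did between genotypes. Sequences and coordinates are from RefSeq, mouse build GRCm38.p6, each written 5' to 3' on the strand of its gene. Slco1a4 and Slco1a1 are on the minus strand at chr6:141856221-141856470 and chr6:141946963-141947212, and Slco1b2 is on the plus strand at chr6:141629268-141629517. Capitals mark matches, on either strand, to 4 short motifs: AGGTCA and AGTTCA, core motifs that many nuclear receptors recognise, GTTAAT, part of the motif of the liver factor HNF1, and TATAAA, the TATA box.
Slco1a4: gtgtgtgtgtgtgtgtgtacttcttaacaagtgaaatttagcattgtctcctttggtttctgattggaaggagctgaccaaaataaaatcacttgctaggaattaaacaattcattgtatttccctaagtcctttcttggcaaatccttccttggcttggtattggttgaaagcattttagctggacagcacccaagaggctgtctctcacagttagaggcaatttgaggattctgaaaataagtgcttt
Slco1a1: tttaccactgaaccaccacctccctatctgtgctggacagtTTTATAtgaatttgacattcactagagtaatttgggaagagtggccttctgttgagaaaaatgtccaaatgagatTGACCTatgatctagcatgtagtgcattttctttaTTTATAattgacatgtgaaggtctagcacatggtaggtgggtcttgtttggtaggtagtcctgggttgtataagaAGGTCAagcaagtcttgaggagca
Slco1b2: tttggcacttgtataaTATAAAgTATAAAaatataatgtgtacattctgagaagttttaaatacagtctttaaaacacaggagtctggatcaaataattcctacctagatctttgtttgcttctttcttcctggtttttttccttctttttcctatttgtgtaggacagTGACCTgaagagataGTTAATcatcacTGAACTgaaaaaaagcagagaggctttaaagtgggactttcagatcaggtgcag
The Slco1a4 window held none of the 4 motifs. The Slco1a1 window held AGGTCA with its first base 24 and, on the opposite strand, 134 bases before the start, and TATAAA on the opposite strand 99 and 209 bases before it. The Slco1b2 window held AGGTCA at 81 and AGTTCA at 54 bases before the start on the opposite strand, and GTTAAT at 66 and TATAAA at 227 and 234 bases before it on the strand of the gene. Across 32851 mouse promoter windows of the same length, AGGTCA was present in 14%, AGTTCA in 11.8%, GTTAAT in 6.43% and TATAAA in 12.4%. A match describes letters in a window and is not a binding site, and an absent match says nothing about a factor. Of the 7 genes, 6 had a promoter window, in 9 windows in all, on chromosome 6, on chromosome 7 (Slco2b1), on chromosome 9 (Slco2a1) and on chromosome 12 (Slc10a1).

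All 7 genes were measured, and each of their 9 probes was well above background on all 4 arrays. One gene, Slco1a4, rose in Cyp3a-/- liver, 0 fell, and 6 did not pass the threshold (limma, adjusted p of 0.05 over all 17406 features, where 0.276% of features passed, 0.178% higher and 0.0977% lower). At an unadjusted p under 0.05 Slco1a4 was again 1 of 7, beside 10% of all features. The median log2 fold change of the 7 genes was 0.17, beside 0.01 for all features, with 4 genes above 0 and 3 below. In 4 of the 7 genes the values of the genotypes did not overlap, beside 42.8% of all features. Of these genes 1 was higher in Cyp3a-/- (22.5% of all features) and 3 were lower (20.2% of all features). Apart from Slco1a4, the count of genes that do not overlap is therefore not a result about these transporters. Since liver was measured in bulk, fewer cells of a type and less RNA per cell cannot be told apart for any of these genes.

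**Figure D1:**
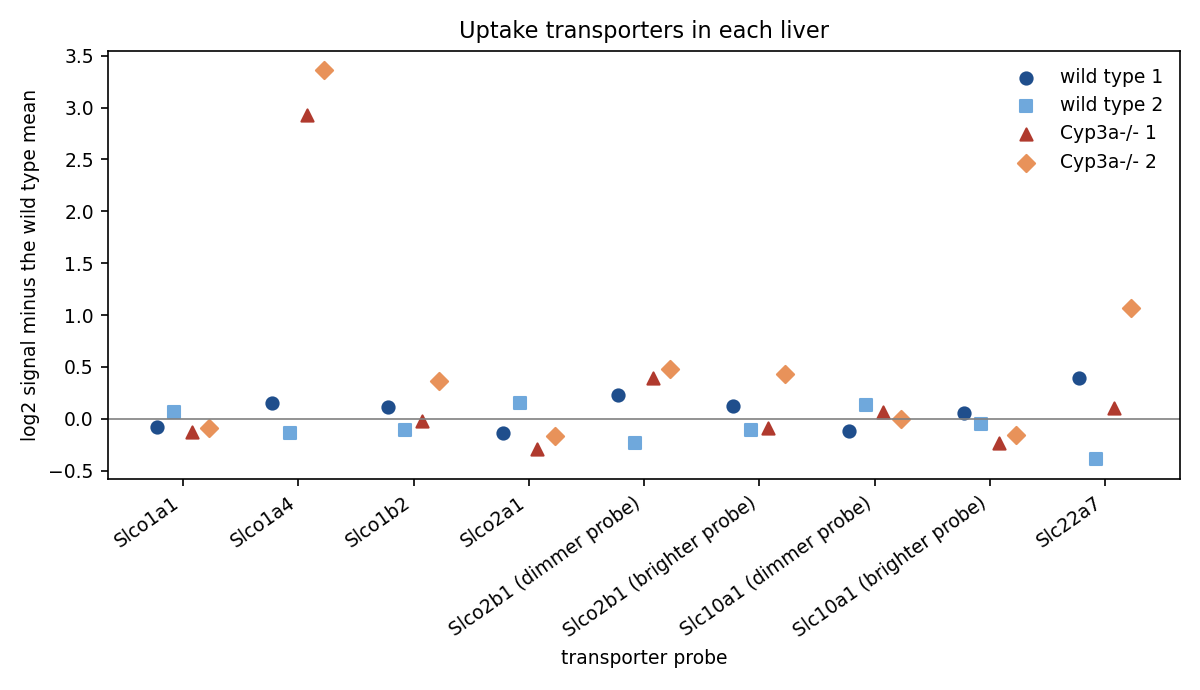
Log2 signal of each transporter probe in each of the 4 livers, minus the mean of the 2 wild type livers for that probe; each symbol is 1 liver and the line at 0 is the wild type mean. Both Cyp3a-/- livers lie far above both wild type livers for Slco1a4, and Slc22a7 has the widest scatter within a genotype.

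Slco1a4 takes up bile salts, steroid conjugates and drugs at the hepatocyte's blood side, and is also the carrier of such compounds at the blood-brain barrier. Slco1a4 was measured by 1 probe with 1 spot per array, so there was no second probe to compare. Its processed intensity was 225 and 208 in wild type 1 and 2 and 1560 and 2060 in Cyp3a-/- 1 and 2. On the log2 scale these were -0.47, -0.76, 2.31 and 2.74, so both Cyp3a-/- livers were above both wild type livers, and the gap between genotypes was many times that within one. The means were -0.62 ± 0.20 and 2.53 ± 0.31 (SD, n = 2). Slco1a4 rose by 3.15 ± 0.23 (log2 fold change ± SE), 8.85-fold, with a 95% confidence interval of 2.57 to 3.72 (limma adjusted p = 0.014). It ranked 17 of all 17406 features by size of rise and 22 by p. Its call was lost without wild type 1 (3.29, adjusted p = 0.20), without wild type 2 (3.0, adjusted p = 0.31) and without a filter on dim probes (3.15, adjusted p = 0.12). Both wild type arrays were on 1 slide and each Cyp3a-/- array was on a slide of its own, so genotype and slide cannot be told apart. With slide as a random block the adjusted p was 0.031. The correlation of that block was set from the spread within each genotype, so this fit cannot separate slide from genotype.

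Slco1a1, the neighbouring gene, encodes a close relative with similar substrates. Its processed intensity was 2240 and 2830 in wild type and 2190 and 2200 in Cyp3a-/- liver, and its log2 levels were 2.85, 3.0, 2.80 and 2.84. Both Cyp3a-/- livers were below both wild type livers, Cyp3a-/- 2 and wild type 1 being close together. The log2 fold change was -0.11 ± 0.18 (95% confidence interval -0.55 to 0.34; limma adjusted p = 0.87). Probe sequences of these close relatives were not analysed here, so how much a probe also reports the other gene was not tested. The 2 probes gave different patterns across the livers: the log2 difference of Slco1a4 from Slco1a1 on the same array was 3.25 larger in Cyp3a-/- than in wild type liver.

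Slco1b2 encodes a liver-restricted transporter of bilirubin, bile salts and statins. It stood at 7.38 and 7.16 in wild type and at 7.25 and 7.63 in Cyp3a-/- liver, on the log2 scale. The genotypes overlapped, with Cyp3a-/- 1 between the wild type livers and Cyp3a-/- 2 above them. Its log2 fold change was 0.17 ± 0.21 (95% confidence interval -0.36 to 0.71; limma adjusted p = 0.81), and its sign turned with quantile normalization (-0.04) and without Cyp3a-/- 2 (-0.02).

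Slco2a1 and Slco2b1 belong to another branch of the family. Slco2a1 encodes the prostaglandin transporter, which clears prostaglandins from the circulation and is not special to hepatocytes. It stood at 3.64 and 3.93 in wild type and at 3.49 and 3.61 in Cyp3a-/- liver. Both Cyp3a-/- livers lay below both wild type livers, Cyp3a-/- 2 by only a small margin. The log2 fold change was -0.23 ± 0.19 (95% confidence interval -0.72 to 0.25; limma adjusted p = 0.71).

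Slco2b1 encodes a transporter of sulfated steroids and of drugs, and 2 probes measured it. The brighter probe, which stands for the gene in all counts, read 3.36 and 3.13 in wild type and 3.15 and 3.67 in Cyp3a-/- liver. The genotypes overlapped, and the difference of 0.17 ± 0.24 (95% confidence interval -0.44 to 0.77; limma adjusted p = 0.84) turned to -0.09 without Cyp3a-/- 2. The dimmer probe read 2.21, 1.75, 2.37 and 2.46. On this probe both Cyp3a-/- livers were above both wild type livers, with a log2 difference of 0.44 ± 0.22 (95% confidence interval -0.11 to 0.98; adjusted p = 0.58 in a limma fit over the 21508 probes kept). The 2 probes thus differed in whether the genotypes overlapped, and neither passed the threshold.

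Slc10a1 encodes Ntcp, the main sodium-dependent bile salt carrier of hepatocytes, and also had 2 probes. The brighter probe read 8.46 and 8.35 in wild type and 8.17 and 8.24 in Cyp3a-/- liver, with processed intensities of 109000, 115000, 90600 and 93100. Both Cyp3a-/- livers were below both wild type livers, and the replicates were close to each other: the residual SD of 0.06 was at percentile 7.62 of all features. The log2 fold change was -0.20 ± 0.17 (95% confidence interval -0.63 to 0.24; limma adjusted p = 0.73). The dimmer probe read 3.60 and 3.85 in wild type and 3.79 and 3.72 in Cyp3a-/- liver, with both Cyp3a-/- values inside the wild type range. Its log2 difference was 0.03 ± 0.19 (95% confidence interval -0.44 to 0.49; adjusted p = 0.97 in the limma fit over probes), so the probes of Slc10a1 had opposite signs and each interval included 0.

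Slc22a7 encodes an organic anion transporter of the basolateral membrane that carries nucleotides, prostaglandins and drugs. Its processed intensity was 2610 and 1720 in wild type and 2160 and 4150 in Cyp3a-/- liver, and its log2 levels were 3.07, 2.29, 2.78 and 3.75. Cyp3a-/- 1 lay between the wild type livers and Cyp3a-/- 2 above them, so the genotypes overlapped. The log2 fold change was 0.59 ± 0.41, 1.51-fold, the largest in size of the 6 genes that did not pass, with a 95% confidence interval of -0.44 to 1.62 (limma adjusted p = 0.67). Its residual SD of 0.62 was at percentile 95.2 of all features, the highest of the 7 genes, which spanned percentiles 7.62 to 95.2. For Slc22a7 the arrays therefore leave a wide interval. For the other 5 genes without a call, each bound of the probe that stands for the gene lay within 0.77 of 0. The interval of the dimmer Slco2b1 probe reached 0.98.

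**Figure D2:**
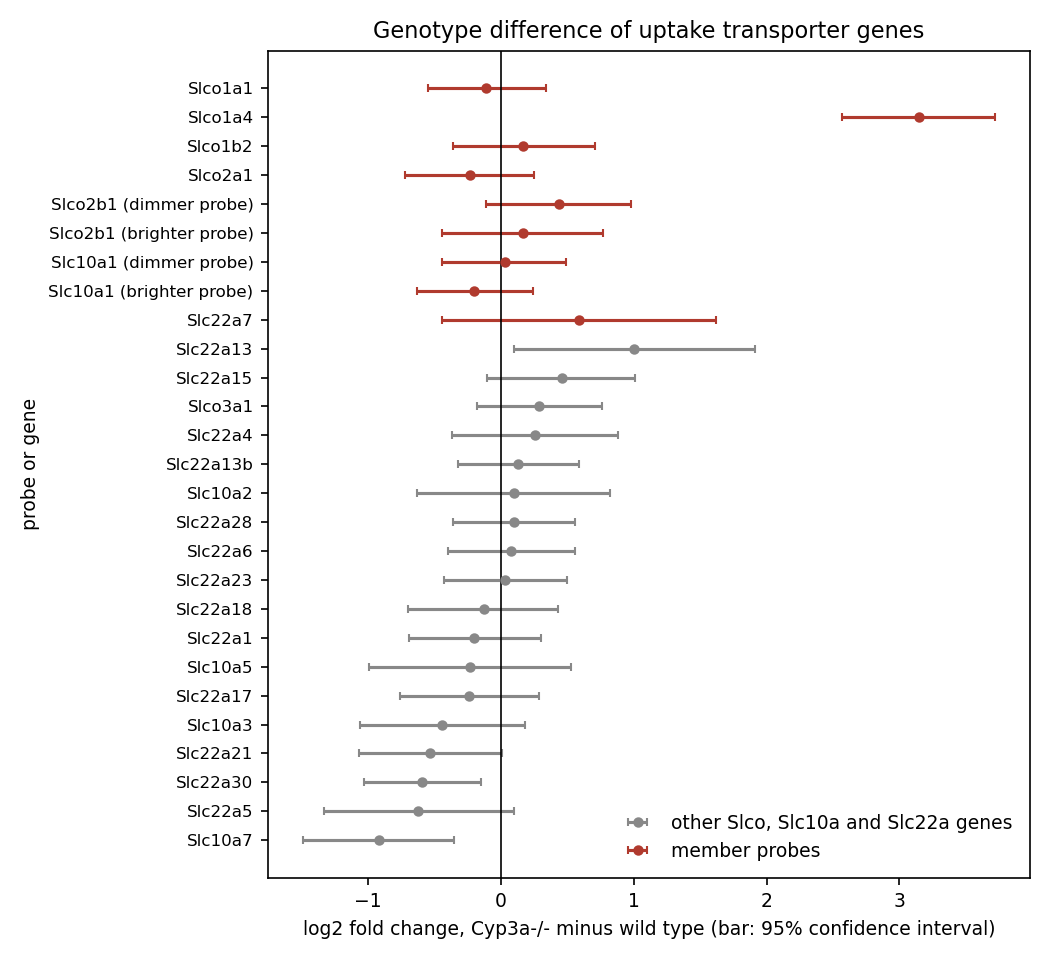
Log2 fold change of the 9 transporter probes (red) and of the 18 other tested Slco, Slc10a and Slc22a genes (grey), Cyp3a-/- minus wild type, with 95% confidence intervals; the dimmer probes of Slco2b1 and Slc10a1 are from the fit over probes, all others from the fit over genes. The interval of Slco1a4, 2.57 to 3.72, lies apart from those of all other probes and genes drawn, and the intervals of the other 8 transporter probes include 0.

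The gene with the rise was compared with each of the other 6 on the same arrays, so that any scaling shared by an array drops out. The log2 difference of Slco1a4 from the other gene was larger in Cyp3a-/- than in wild type liver by 3.25 for Slco1a1, 2.97 for Slco1b2, 3.38 for Slco2a1, 2.98 for Slco2b1, 3.34 for Slc10a1 and 2.56 for Slc22a7. Each of these is the log2 fold change of Slco1a4 less that of the other gene, so they restate the fold changes and add no test. These differences do not show that a gene stayed the same. With 2 livers against 2 the smallest p an exact permutation test can give is 0.333, so no such p is given for them. Among all features, 15347 (88.2%) had a log2 fold change within 0.59 of 0, the size for Slc22a7, and 16 features had a larger rise than Slco1a4.

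**Figure D3:**
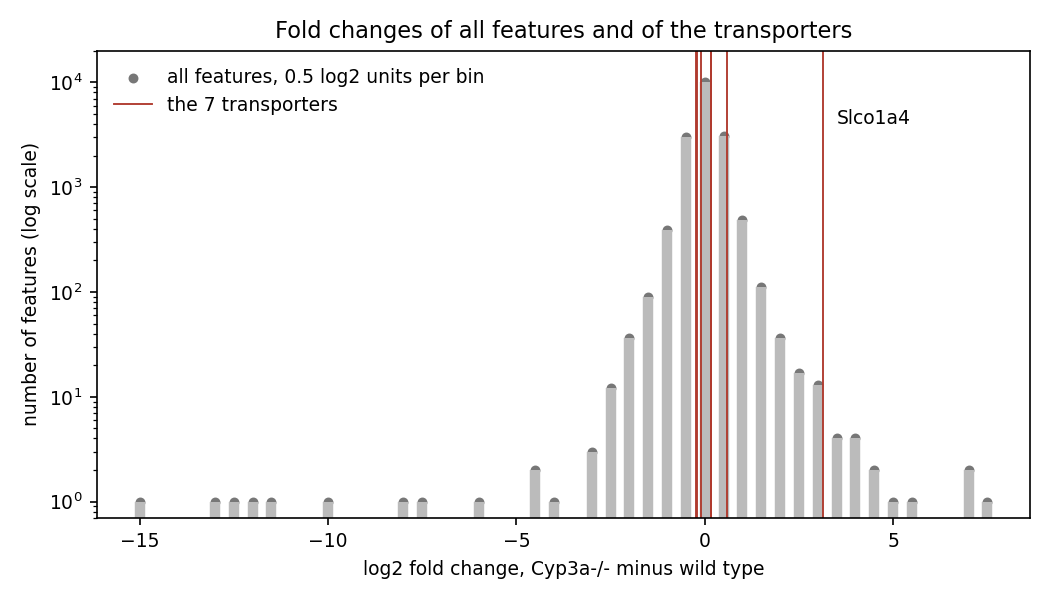
Number of features by log2 fold change, Cyp3a-/- minus wild type, in bins of 0.5 with a log scale on the vertical axis; red lines mark the 7 transporters. Of these, 6 fall in the central mass of features and Slco1a4, at 3.15, falls where few features lie.

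The livers did not take the same place in every gene. Cyp3a-/- 2 was the highest liver for 4 genes, Slco1a4, Slco1b2, Slco2b1 and Slc22a7, and wild type 2 was the lowest for the same 4. For Slco1a1, Slco2a1 and Slc10a1 the lowest liver was Cyp3a-/- 1, and the highest was wild type 2 for the first 2 and wild type 1 for Slc10a1. The gap between the replicates of a genotype was widest for Slc22a7, 0.78 in wild type and 0.97 in Cyp3a-/- liver. It was narrowest for Slc10a1 in wild type, 0.10, and for Slco1a1 in Cyp3a-/- liver, 0.03. Within a genotype Slco1b2, Slco2b1, Slc10a1 and Slc22a7 had the same order of livers as Slco1a4.

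The 4 centred log2 values of each transporter were compared, by Euclidean distance, with those of 13094 genes with a symbol. Of the 5 genes nearest to Slco1a4, Dct, known from pigment cells, was the one well above background on all 4 arrays (distance 0.519). Dct rose by 2.63 ± 0.24 (limma adjusted p = 0.026), from 0.90 and 0.55 to 3.15 and 3.57. Wif1, Vit and Egr2 were also among the 5, but both wild type livers were dim, not well above background, so their wild type values are background signal and no distance is given for them. What remains is a bound, which sets the mean of the Cyp3a-/- livers against, on each wild type array, the dimmest probe that was well above background there. Wif1, a secreted Wnt inhibitor, was at least 1.89-fold higher in Cyp3a-/- liver (limma adjusted p = 0.0086). For Vit, at least 1.5-fold (adjusted p = 0.061), and Egr2, at least 1.72-fold (adjusted p = 0.10), the threshold was not passed. These 3 genes passed the filter on dim probes through the Cyp3a-/- livers alone. Their adjusted p are from the fit that used the background values and do not test the bounds. All 5 were picked for a pattern near that of Slco1a4, so their direction is no separate evidence. The single nearest gene was Pcmt1 for Slco1a1 (0.005), 1700001C19Rik for Slco1b2 (0.020), Zgpat for Slco2a1 (0.016), Gpr153 for Slco2b1 (0.015), Plscr3 for Slc10a1 (0.016) and 1700029J07Rik for Slc22a7 (0.053).

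No other tested gene of the same transporter families passed the threshold. The array held 40 further genes, 25 of the Slc22a, 6 of the Slc10a and 9 of the Slco family, and 22 of them were below background on every array. Among these were 8 Slco genes, with Slco1a5 and Slco1a6, further members of the Slco1a branch. Of the 18 tested, 0 passed limma's threshold and 3 had an unadjusted p under 0.05, beside 0.276% and 10% of all features. Among these 18, 9 were above and 9 below 0. Their median log2 fold change was -0.05, with a range of -0.92 to 1.00. The 3 with the smallest p were Slc10a7 at -0.92 ± 0.23 (adjusted p = 0.30), Slc22a30 at -0.59 ± 0.18 (adjusted p = 0.38) and Slc22a13, a carrier of urate and nicotinate, at 1.00 ± 0.36 (adjusted p = 0.46). Slc22a13 read -3.92 and -4.02 in wild type and -2.44 and -3.50 in Cyp3a-/- liver, far apart within the knockout.

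What is taken up must leave the cell again, into bile or back to blood, by efflux pumps. Of 14 efflux genes for organic anions, bile salts and lipids, 13 were tested, with a median of -0.11. In the limma fit 0 passed and 3 had an unadjusted p under 0.05, beside 0.276% and 10% of all features. Slc51a, a subunit of the basolateral bile salt exporter, was below background on every array. Abcb1a, the multidrug efflux pump, stood at -2.91 and -2.49 in wild type and at -0.95 and -1.01 in Cyp3a-/- liver, a log2 difference of 1.72 ± 0.21 (adjusted p = 0.079). Abcc4, a basolateral pump of bile salts and nucleotides, stood at -0.55 ± 0.18 (adjusted p = 0.41). The canalicular bile salt pump gene Abcb11, named after its values were seen, was at 0.08 ± 0.17 (adjusted p = 0.89).

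Genes that control transporter expression or hold transporters at the membrane gave no call. The 20 transcription factor and nuclear receptor genes had a median of 0.07. Of these, 0 passed in the limma fit and 4 had an unadjusted p under 0.05, beside 0.276% and 10% of all features. Nr0b2, the bile acid-induced repressor SHP, read 1.27 and 1.88 in wild type and 0.55 and 0.75 in Cyp3a-/- liver, at -0.92 ± 0.26 (adjusted p = 0.34). Cebpb, an acute-phase factor, was at 0.71 ± 0.20 (adjusted p = 0.36). The receptors known to act on Slco1a4 are named here after their values were seen: Nr1i3 (CAR) at -0.59 ± 0.20 (adjusted p = 0.44) and Nr1i2 (PXR) at 0.14 ± 0.30 (adjusted p = 0.90). The 7 genes for scaffold proteins and the ion gradient that drives Ntcp had a median of 0.06. Of these 7, 0 passed in the limma fit and 1 had an unadjusted p under 0.05, beside the same 0.276% and 10% of all features. The scaffold gene Slc9a3r2 was at -0.55 ± 0.18 (adjusted p = 0.40) and the bicarbonate carrier gene Slc4a4 at -0.54 ± 0.23 (adjusted p = 0.53).

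CAR and PXR respond to drugs and foreign compounds, and Slco1a4 was set beside other genes they are known to switch on. Of 39 listed targets, Slco1a4 not counted, 33 were tested, of which 5 rose, 0 fell and 28 did not pass, and the median log2 fold change was 0.72, with 32 above and 1 below 0. Over all features 0.178% rose. In 28 of the 33 the genotypes did not overlap, beside 42.8% of all features. The P450 genes Cyp2b10, Cyp2c55 and Cyp2b9 rose by 4.33 ± 0.23 (limma adjusted p = 0.004), 5.39 ± 0.34 (0.0086) and 4.0 ± 0.35 (0.023), the last well above background on 1 of 2 wild type arrays. The aldo-keto reductase gene Akr1b7 rose by 3.31 ± 0.32 (adjusted p = 0.034) and the carboxylesterase gene Ces2a by 1.76 ± 0.18 (adjusted p = 0.040). Slco1a4 at 3.15 was thus below 4 and above 1 of the 5 called targets. The list was chosen with earlier results of these data known and shares 5 members with the efflux list, so it gives no independent evidence of direction. The number of called targets was 0 without wild type 1 and 0 without wild type 2, 11 without Cyp3a-/- 2 and 15 with median scaling, with 28 to 32 of the 33 above 0 in these 4 settings.

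**Figure D4:**
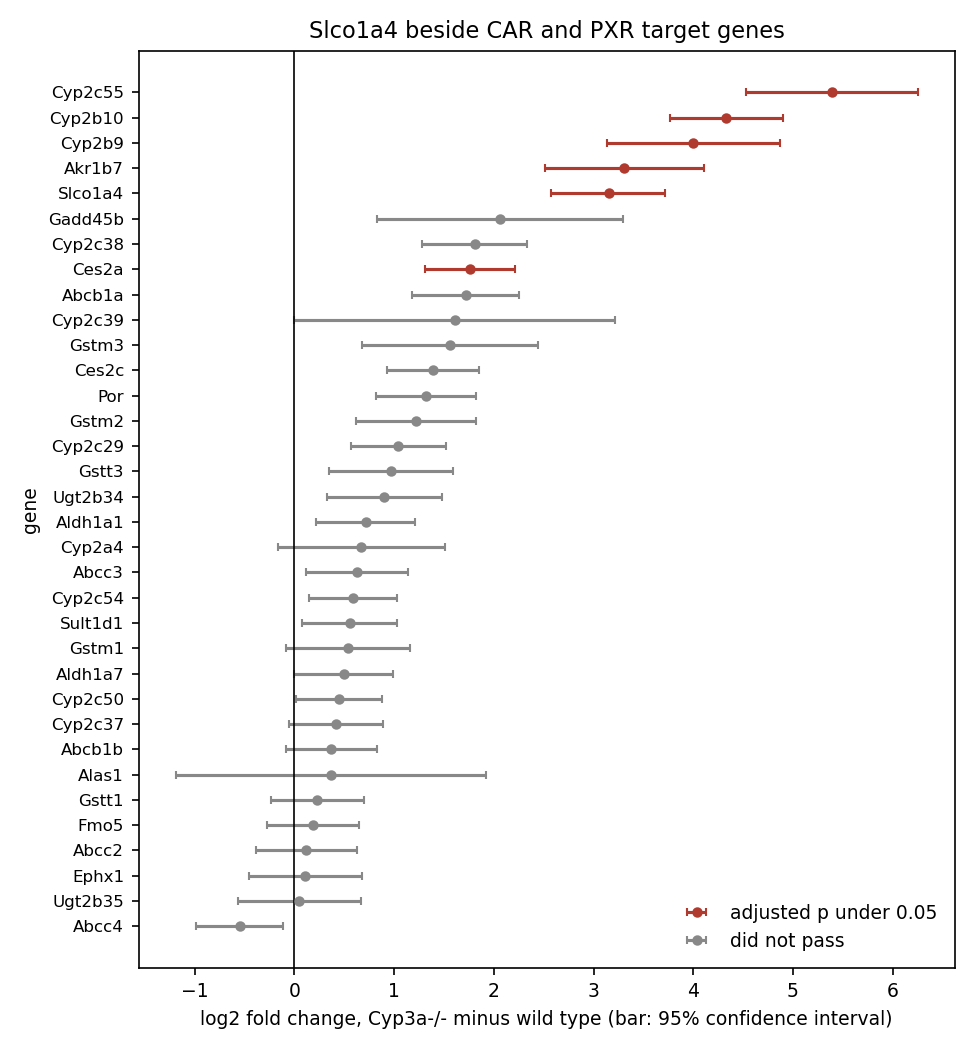
Log2 fold change, Cyp3a-/- minus wild type, with 95% confidence intervals, of Slco1a4 and the 33 tested CAR and PXR target genes, ordered by size; red marks an adjusted p under 0.05 in limma. Slco1a4 has 4 targets above it, and Abcc4 at -0.55 is the 1 target below 0.

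Since Slco1a1 and Slco1a4 differ between the sexes and the sex of these mice was not given, sex-biased liver genes were listed as well. Of 16 male-biased genes, 1 passed, Moxd1, which was dim in both wild type livers. Moxd1 passed the filter on dim probes through the Cyp3a-/- livers alone, and was at least 49.8-fold higher in Cyp3a-/- liver. Its limma adjusted p of 0.017 is from the fit that used the background values and does not test this bound. The median of the list was 0.14, and -0.01 with quantile normalization. Of 7 female-biased genes tested, 1 passed, Cyp2b9, also a CAR target, and the median was -0.07. Beside the male-biased and female-biased counts, 0.276% of all features passed. Among the other female-biased genes, A1bg, Cux2, Cyp2b13, Hao2 and Sult3a1 were below background on every array. The part of sex in the transporter values was not tested.

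Marker genes were used to see whether the cell types that carry these transporters were present alike in the 4 livers. All 12 hepatocyte markers were well measured, and their summed level (signal over the 75th percentile, added over markers) was 5110 and 4480 in wild type and 4530 and 5110 in Cyp3a-/- liver. Pericentral markers summed to 960 and 938 against 973 and 1190, and periportal markers to 987 and 949 against 926 and 1120. Cyp3a-/- 2 was highest in both zonal lists and level with wild type 1 in the hepatocyte list. Cyp3a-/- 1 had the lowest periportal sum. Sums of sinusoidal endothelium (41 to 53.2 over the 4 livers), other endothelium (4.99 to 5.99), cholangiocytes (1.4 to 1.91), lymphocytes (10.8 to 17.9) and neutrophils (38.2 to 50.5) overlapped between genotypes. Sums of Kupffer cell markers were 67.3 and 68.2 against 55.4 and 60.8, and of stellate cell markers 89.5 and 80.7 against 66.5 and 76.3. Those of erythroid markers were 92.4 and 108 against 48.2 and 76.3. Each was lower in both Cyp3a-/- livers, while pericentral sums and adipose and pancreas sums were higher in both. Among all features, 20.2% were lower and 22.5% higher in both Cyp3a-/- livers. Of the 6 tested erythroid markers, 4 were below and 2 above 0. All 12 stellate cell markers were below 0, with a median of -0.25 (9 of 12 with normexp background correction). Leaving out 1 liver moved this median to -0.09 without wild type 1 (9 of 12 below 0) and to -0.42 without wild type 2 (12 of 12). It was -0.2 without Cyp3a-/- 1 (10 of 12) and -0.48 without Cyp3a-/- 2 (11 of 12). Of 106 markers tested in 12 lists, 0 passed limma's threshold and 11 had an unadjusted p under 0.05, beside 0.276% and 10% of all features. Sums over the 10 adipose and pancreas markers on the array, 3 of them tested, were 1.06 and 1.09 in wild type and 1.53 and 1.1 in Cyp3a-/- liver. Adipoq, Lep, Plin1, Cpa1, Pnlip and Prss1 were below background everywhere, and their dim signal is part of these sums. Pericentral, cholangiocyte, lymphocyte, neutrophil and erythroid sums likewise include markers on the array that were not tested. The part of these cell types in the transporter values was not tested.

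Over all processing settings tried, Slco1a4 kept its sign, at 2.73 to 3.36. The range was -0.18 to -0.03 for Slco1a1, -0.38 to -0.09 for Slco2a1, -0.36 to -0.08 for Slc10a1 and 0.10 to 1.08 for Slc22a7, each with its sign kept. It was -0.04 to 0.36 for Slco1b2 and -0.09 to 0.43 for Slco2b1, whose signs turned in the settings named above. Slc22a7 moved most, from 0.10 without Cyp3a-/- 2 to 1.08 without Cyp3a-/- 1.

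**Figure D5:**
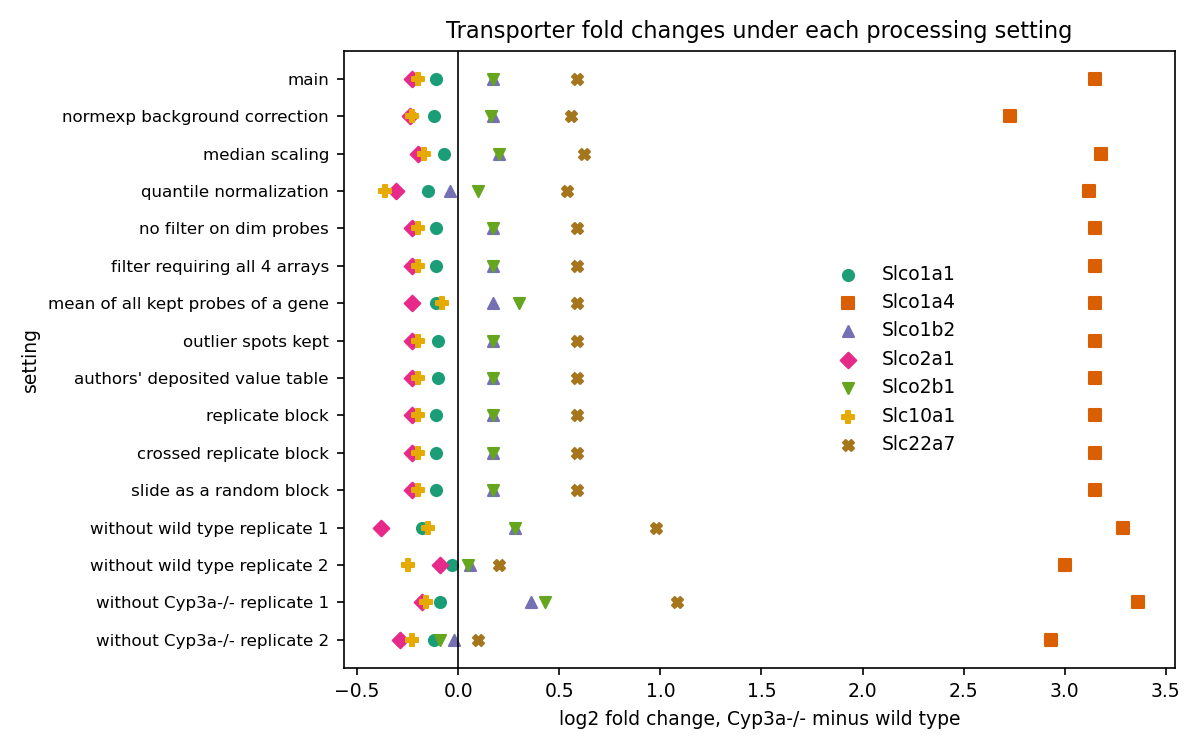
Log2 fold change of the 7 transporters, Cyp3a-/- minus wild type, under each processing setting (rows); each symbol is 1 gene. Slco1a4 stays between 2.73 and 3.36 in every setting drawn, and the other 6 stay below 1.08 or at it.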

How the data were processed

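The authors deposited 1 scanner file per liver, and the submitters' processing notes name Agilent Feature Extraction 11.5.1.1 for reading spot intensity. Per the file headers, the processed intensity has background subtracted and each array was left on its own scale. Flags for background, saturation and outliers, and median signals used in an alternative, were used as deposited. A second table that the authors deposited holds log2 values, and it matched the scaled scanner values with each probe centred on its median (correlation 1).

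Spots of a probe were averaged as log2 values after outlier spots were left out, and the 75th percentile over 39429 probes was subtracted per array (R 4.3.3). Probes well above background on both arrays of a genotype were kept, 21508 in all, and the probe with the highest mean stood for a gene, giving 17406 features. Symbols came from accessions through RefSeq, for 28025 probes. Genotypes were compared with limma 3.58.1 (lmFit, eBayes, two-sided, Benjamini-Hochberg over all features, threshold 0.05). The limma fit was checked on simulated data with independent arrays, which does not cover a slide or experiment effect. From 54.4% to 56.4% of probes were well above background, 0 spots were saturated and all arrays were scanned on 1 day. Precision is limited by having 2 arrays in each genotype.

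The 7 genes, the gene lists and the tests were chosen with earlier results of these data known. Named with values are the 7 genes, the other family genes with the 3 smallest p, of each pathway list those past the threshold or else the 2 with the smallest p, and the nearest patterns, 5 for a gene past the threshold and 1 otherwise; some of these are not reported here. Marker lists are given as counts and summed levels. Alternatives were normexp background correction, median scaling, quantile normalization, other filters, the mean of a gene's probes, outlier spots kept, the authors' table, blocks of replicate number and slide, and leaving out each liver.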

Additional observations from a re-analysis of the deposited data

How the results depend on the processing

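Over 15 alternatives, the fold change of Slco1a4 kept its direction in all and its call in 12, with adjusted p from 1.6e-20 to 0.31. The number of features called was 48, and became 659 with median scaling, 13 without a filter on dim probes (32176 tested) and 9 with a filter requiring all 4 arrays, and leaving out 1 liver gave 7 to 506: 8 without wild type 1, 7 without wild type 2, 94 without Cyp3a-/- 1 and 506 without Cyp3a-/- 2. In fits with 1 liver in a genotype, the lone liver is assumed to vary like the others. With median scaling limma gave all genes 1 common variance. Of the features called, 64.6% were higher, 58.9% with median scaling, 30.8% without a filter, and 12.5% to 81% when 1 liver was left out (12.5% without wild type 1, 14.3% without wild type 2, 50% without Cyp3a-/- 1 and 81% without Cyp3a-/- 2). The transporters called, 1, became 0 without a filter, and 0 to 1 when 1 liver was left out, 0 being without wild type 1 or wild type 2. Slco1b2 changed sign with quantile normalization (-0.04) and without Cyp3a-/- 2 (-0.02), and Slco2b1 without Cyp3a-/- 2 (-0.09). Without Cyp3a-/- 1 these were 0.36 and 0.43. The median of all features was 0.01, 0.04 with median scaling and -0.02 with quantile normalization. The cause of these changes was not tested. With the replicate block 58 features were called, 43 of them shared, and Slco1a4 had an adjusted p of 0.015. Same-numbered livers tended weakly to deviate in opposite directions (correlation -0.102 across 17406 genes, which are not independent replicates), so the crossed pairing was added after seeing the data and called 56 features. The slide block used a correlation of 0.35, because limma's estimate gave no value. It was set from the wild type spread (1 slide) against the Cyp3a-/- spread (separate slides), so it also holds any genotype difference in spread. It called 33 features, and the adjusted p of 0.031 for Slco1a4 rests on it.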

Other observations

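The genes around Slco1a4 on chromosome 6 were looked at after the values of Slco1a4 were seen, in the order of the RefSeq table of build GRCm38.p6. Of the 16 nearest protein-coding genes, 8 on each side, 15 had a probe and 7 were well enough above background to be tested. Of these, 0 passed limma's threshold and 0 had an unadjusted p under 0.05, beside 0.276% and 10% of all features. Slco1a1, the next gene, and Slco1b2 are described in the report. Pyroxd1, a redox enzyme gene, stood at 0.31 ± 0.18 (limma adjusted p = 0.63) and Recql, a DNA helicase gene, at -0.31 ± 0.21 (adjusted p = 0.66). Plekha5, Aebp2 and Golt1b were at -0.10, -0.03 and -0.14. The other 8 with a probe, Plcz1, Capza3, Pde3a, Slco1c1, Gm6614, Slco1a6, Slco1a5 and Iapp, were not well above background on any array.

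Of the promoter windows not shown, 1 of Slco2b1 held AGTTCA 160 bases before the start, that of Slco2a1 held TATAAA 29 bases before it, and those of Slc10a1 held TATAAA 128 bases before one start and AGGTCA 87 bases before another.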
